A study of Mus musculus with 12 samples.

Results

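The enteroendocrine genes of the mouse colon were followed on 12 whole-transcript arrays. They are 10 genes chosen by name: Tph1 for serotonin, Sct, Gcg, Cck, Pyy and Insl5 for peptide hormones, Chga and Chgb for the proteins of the secretory granule, and Neurog3 and Neurod1 for the lineage factors. Each gene is measured by 1 probe that carries its symbol alone, so the group holds 10 of the 28853 probes, or 10 of the 19938 genes that have such a probe. The rule names genes and uses no measured value, but the genes were chosen with earlier results of these data known.

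The study compared mice that lack thrombospondin-1 (TSP-1-/-), an extracellular matrix glycoprotein that restrains angiogenesis, with wild-type (WT) mice of the same C57BL/6 strain in a model of colitis-associated colon cancer. There were 4 groups of 3 arrays. The AOM/DSS treated WT and AOM/DSS treated TSP-1-/- mice were males aged 7 weeks at the start that received 1 injection of the carcinogen azoxymethane (AOM, 10 mg/kg) and 4 cycles of 7 days with 1.5% dextran sulfate sodium (DSS), which injures the colonic lining, in the drinking water, and were killed 15 weeks after AOM. The WT and TSP-1-/- water mice drank water only and received neither agent. Their age is not given in the labels, which also attach to them the protocol of an earlier DSS study. RNA came from the colon, by the authors' methods for the treated mice from normal and diseased tissue, with the share of each on an array not given. Their heatmap legend instead calls the treated samples tumors. The TSP-1-/- mice still carry the gene, with a targeted mutation in exons 2 and 3.

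Enteroendocrine cells are scattered hormone-secreting cells of the gut epithelium that sense the content of the lumen. Neurog3 commits a progenitor to this fate for a short time, and Neurod1 acts after it as the cells differentiate. The mature cells of the colon include enterochromaffin cells, which make most of the serotonin of the body, and L cells, which make glucagon-like peptides, peptide YY and, toward the distal colon, insulin-like peptide 5. In whole colon, fewer cells of a type and less RNA per cell cannot be told apart.

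All values are log2 values relative to a baseline of each probe, so they give differences between arrays and no level of one gene against another, and they do not show whether a gene stands above background. The authors state a baseline of the median of all 12 arrays. Group means that they list matched the deposited values on the 6 AOM/DSS arrays and not on the 6 water arrays. Genotypes were therefore compared within each array set, and AOM/DSS was not tested against water. The SD of the probes on an array ran from 0.293 to 0.753, with the highest on TSP-1-/- AOM/DSS replicate 3. On that array the mean of 12 pancreatic acinar markers was 6.10, against -0.21 to 0.59 on the other 5 AOM/DSS arrays. Thbs1, which encodes TSP-1, read 0.27, -0.16 and -0.07 on the WT AOM/DSS arrays and 0.81, 0.85 and 0.93 on the TSP-1-/- AOM/DSS arrays. On water, it read -1.36, -0.99 and -0.47 in WT and 0.00, -0.96 and -1.15 in TSP-1-/-. Its difference was 0.85 (SE 0.28, limma adjusted p = 0.0730) within AOM/DSS, and since the mutated gene is still present, this probe does not check the genotype labels.

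Within the AOM/DSS arrays, 5 of the 10 enteroendocrine genes were lower in TSP-1-/- than in WT by the call rule used throughout, a limma p of less than 0.05 after Benjamini-Hochberg adjustment over all probes together with a 2-fold or larger difference. They were Sct, Tph1, Chga, Neurod1 and Chgb, which differed by 2.50-fold to 4.90-fold. None was called higher. The same rule called 2.78% of all 28853 probes in either direction and 1.05% lower. For 7 of the 10 genes all 3 TSP-1-/- arrays lay below all 3 WT arrays, which was so for 10.7% of all probes. The median difference of the 10 genes was -1.27 on the log2 scale, against 0.13 for all probes. In water, 0 of 10 genes passed the test and none had separate groups.

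**Figure D1:**
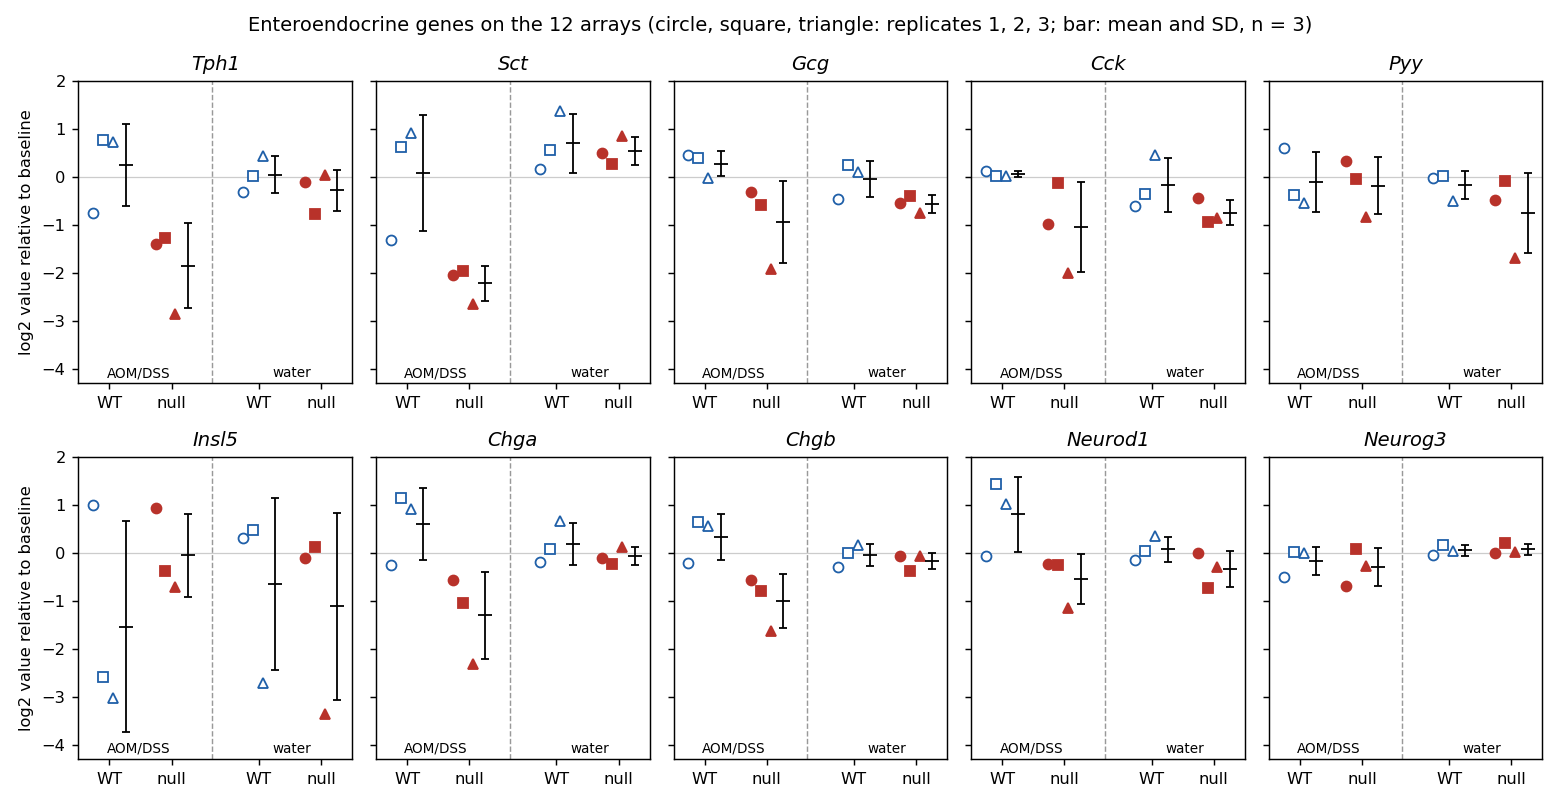
Log2 values relative to baseline (vertical axis) of the 10 genes on the 3 arrays of each group, with the group mean and SD beside the points; open symbols are WT and filled symbols TSP-1-/- (null), and the AOM/DSS and water sets have different baselines. The TSP-1-/- AOM/DSS points of Tph1, Sct, Gcg, Cck, Chga, Chgb and Neurod1 all lie below the WT AOM/DSS points, while Insl5 spans 4.02 log2 units within the WT AOM/DSS group.

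The promoters of the genes on which the results turn are shown because Neurog3 and Neurod1 are basic helix-loop-helix factors, a class that binds the E-box CANNTG. Each line gives the 250 bases before a transcription start, 5′ to 3′ on the strand of the gene, from RefSeq (GRCm38.p6), with every CANNTG in capitals. Tph1 and Insl5 have 2 starts each in this table, and the downstream one is shown.

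Sct promoter, chr7:141279134-141279383 (minus strand): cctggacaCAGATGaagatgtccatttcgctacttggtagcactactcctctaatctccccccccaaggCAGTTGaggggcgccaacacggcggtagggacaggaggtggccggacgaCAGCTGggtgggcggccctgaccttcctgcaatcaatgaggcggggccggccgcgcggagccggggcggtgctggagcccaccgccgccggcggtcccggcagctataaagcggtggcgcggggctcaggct
Chga promoter, chr12:102554691-102554940 (plus strand): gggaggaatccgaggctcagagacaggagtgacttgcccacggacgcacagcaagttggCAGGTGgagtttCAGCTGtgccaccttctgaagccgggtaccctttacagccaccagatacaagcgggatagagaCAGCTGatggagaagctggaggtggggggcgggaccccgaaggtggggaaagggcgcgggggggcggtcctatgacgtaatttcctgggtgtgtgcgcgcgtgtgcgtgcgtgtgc
Tph1 promoter, chr7:46667378-46667627 (minus strand): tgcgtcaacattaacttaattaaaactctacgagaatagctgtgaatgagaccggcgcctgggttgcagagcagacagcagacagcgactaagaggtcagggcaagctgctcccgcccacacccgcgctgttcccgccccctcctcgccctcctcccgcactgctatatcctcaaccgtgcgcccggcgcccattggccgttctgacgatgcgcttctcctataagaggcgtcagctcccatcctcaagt
Insl5 promoter, chr4:103026729-103026978 (minus strand): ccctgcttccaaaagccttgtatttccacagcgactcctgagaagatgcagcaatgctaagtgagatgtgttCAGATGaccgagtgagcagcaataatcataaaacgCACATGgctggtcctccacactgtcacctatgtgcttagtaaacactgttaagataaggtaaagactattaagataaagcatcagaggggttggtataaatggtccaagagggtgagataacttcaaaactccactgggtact

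All 10 genes have a promoter in the table, and in 9 of them the 250 bases hold at least 1 CANNTG on either strand, against 69.3% of the 27025 genes listed there. The exception was Tph1, which had none before either start. A pair of narrower forms of the E-box was counted too. CAGCTG was found in 3 of the 10 genes (14.7% of all genes) and CAGATG in 4 (16.3%), both strands read. TGACG, the core letters of the cyclic AMP response element on both strands, was found in 4 (19.8%). The Sct promoter holds 3 E-boxes, 1 of each narrow form among them, and the Chga promoter holds 3. The genes called lower thus include promoters with several E-boxes and 1 without any. A match of these letters is a description of the sequence and not a measured site.

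Tph1 encodes the rate-limiting enzyme of serotonin synthesis outside the nervous system. On the WT AOM/DSS arrays it gave -0.75, 0.77 and 0.72, and on the TSP-1-/- AOM/DSS arrays -1.40, -1.28 and -2.87. The groups did not overlap, with the WT replicate 1 array nearest to the TSP-1-/- arrays and TSP-1-/- replicate 3 the lowest. The difference was -2.09 (SE 0.47, 95% interval -3.11 to -1.08), a 4.27-fold lower value with a limma adjusted p of 0.0283. The SE rests on 1 spread per probe shared by the 4 groups. The SD of Tph1 was 0.86 in WT and 0.89 in TSP-1-/- within AOM/DSS, against 0.38 and 0.43 on water. The AOM/DSS interval therefore does not carry the wider spread of the AOM/DSS arrays in full. On water, Tph1 read -0.31, 0.01 and 0.45 in WT and -0.11, -0.78 and 0.04 in TSP-1-/-, which overlapped (difference -0.33, SE 0.47, 95% interval -1.35 to 0.69).

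Mast cells also express Tph1, and their part in its values was not tested. The mean of 11 mast cell markers was 1.65, -0.15 and -0.04 on the WT AOM/DSS arrays and 1.33, 1.90 and 1.75 on those of TSP-1-/- mice. The median difference of these 11 markers was 0.86, and Kit was the only 1 below 0. Of the 11, 1 was called higher (Fcer1a, 1.91, limma adjusted p = 0.0459) and 1 lower (Kit, -1.26, adjusted p = 0.0413). Kit read 0.40, 0.94 and 0.09 in WT and -0.51, -0.28 and -1.57 in TSP-1-/-, with no overlap. The defining proteases Mcpt1 and Mcpt2 differed by 3.25 and 3.19 without passing the test (adjusted p = 0.0810 and 0.0942).

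A further 10 genes handle serotonin or its synthesis, and 2 of them passed the test, both lower, with a median difference of -0.09 over the list. They were Maoa (-1.05, adjusted p = 0.0469) and Maob (-1.20, adjusted p = 0.0279), the monoamine oxidases that degrade serotonin and other amines. Maob read -0.25, 0.21 and 0.34 in WT against -0.72, -0.78 and -1.80 in TSP-1-/-, with no overlap. Neither enzyme is confined to enteroendocrine cells. No serotonin gene of this list was called in water.

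Sct encodes secretin, which stimulates bicarbonate secretion and is made by enteroendocrine cells. It read -1.31, 0.62 and 0.91 on the WT AOM/DSS arrays and -2.05, -1.96 and -2.64 on the TSP-1-/- AOM/DSS arrays. The groups did not overlap, and the 3 TSP-1-/- values were closer together than the 3 WT values. Its difference of -2.29 (SE 0.49, 95% interval -3.36 to -1.22) was the largest fall of the 10 genes, 4.90-fold, with a limma adjusted p of 0.0267. On water Sct read 0.16, 0.56 and 1.38 in WT and 0.50, 0.26 and 0.85 in TSP-1-/- (difference -0.16, SE 0.49), and the groups overlapped.

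Gcg and Cck were lower in TSP-1-/- on every AOM/DSS array without passing the test. Gcg, whose product is cut to glucagon-like peptides in L cells, read 0.45, 0.40 and -0.02 in WT against -0.32, -0.59 and -1.91 in TSP-1-/-. Its difference was -1.22 (SE 0.34, 95% interval -1.97 to -0.47) with an adjusted p of 0.0502 by limma, just outside the threshold. Cck, which encodes cholecystokinin, a hormone that slows gastric emptying and contracts the gallbladder, read 0.12, 0.01 and 0.02 in WT against -0.98, -0.13 and -2.01. The 3 WT arrays were nearly alike and the TSP-1-/- arrays were spread out, and the difference was -1.09 (SE 0.39, adjusted p = 0.0868).

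On the water arrays Gcg read -0.46, 0.26 and 0.09 in WT and -0.55, -0.39 and -0.76 in TSP-1-/-. Cck read -0.61, -0.36 and 0.46 in WT and -0.43, -0.93 and -0.86 in TSP-1-/-. Both overlapped between genotypes, with differences of -0.53 (95% interval -1.28 to 0.22) and -0.57 (95% interval -1.42 to 0.28). These intervals include 0, and they also include the AOM/DSS difference of each gene.

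Gcg is also expressed by islet cells of the pancreas, and TSP-1-/- AOM/DSS replicate 3 carried pancreatic acinar markers. The mean of 9 islet markers on that array was -0.05, within the range of -0.31 to 0.07 on the other AOM/DSS arrays, although Ins2 read 1.10 there against -0.34 to 0.56. Of the 12 acinar markers 1 was called higher within AOM/DSS, and of the 9 islet markers none was called. The median difference of the 9 islet markers was 0.24, and only Iapp was below 0 (-2.75). Iapp, which is also among the further peptide hormone genes below, read -2.34 on TSP-1-/- AOM/DSS replicate 3 and so lowered the islet mean there. Replicate 3 was the lowest of the 3 TSP-1-/- AOM/DSS arrays for 9 of the 10 genes and the lowest of all 6 AOM/DSS arrays for 8. The same shares were not computed over all probes, and this array had the widest spread of probes (SD 0.753). The mean of 9 epithelial markers was also lowest on it, at -0.71 against -0.09 to 0.21 on the other AOM/DSS arrays, and the part of either marker list in the hormone values was not tested.

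Pyy and Insl5, the peptide YY and insulin-like peptide 5 genes of the L cells, did not follow the other hormones. Pyy read 0.61, -0.38 and -0.55 on the WT AOM/DSS arrays and 0.33, -0.04 and -0.83 on those of TSP-1-/- mice. These groups overlapped throughout (difference -0.07, 95% interval -0.996 to 0.853, limma adjusted p = 0.920). On water Pyy read -0.03, 0.03 and -0.50 in WT and -0.47, -0.09 and -1.68 in TSP-1-/- (difference -0.58, SE 0.42). The lowest water array of each genotype was replicate 3.

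Insl5 read 1.00, -2.59 and -3.03 on the WT AOM/DSS arrays and 0.92, -0.38 and -0.71 on those of TSP-1-/- mice. WT replicate 1 was thus the highest of all 6 and the other two were the lowest, and the difference of 1.48 had a 95% interval from -1.12 to 4.09 (adjusted p = 0.397). On water Insl5 read 0.30, 0.47 and -2.73 in WT and -0.12, 0.12 and -3.36 in TSP-1-/-. Here too 1 array of each genotype stood far below the others, and the difference was -0.47 (95% interval -3.07 to 2.14).

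The arrays on which Insl5 was low were those on which Hoxb13 was low. Hoxb13 is a homeobox gene whose expression in the gut marks the most distal colon and rectum. It read 0.43, -6.33 and -5.89 on the WT AOM/DSS arrays and 0.78, -0.06 and 0.06 on the TSP-1-/- AOM/DSS arrays. On water it read 2.48, 1.52 and -3.68 in WT and 1.70, 2.17 and -4.24 in TSP-1-/-. The arrays therefore formed a lower cluster of 4, with Hoxb13 between -6.33 and -3.68, and an upper cluster of 8, with Hoxb13 between -0.06 and 2.48. Insl5 ran from -3.36 to -2.59 on the 4 arrays of the lower cluster and from -0.71 to 1.00 on the 8 arrays of the upper one, with no overlap. Because the arrays fall into these clusters, no correlation with Hoxb13 is given.

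Within the AOM/DSS arrays the lower cluster held 2 WT arrays and no TSP-1-/- array, while in water it held 1 array of each genotype. The mean of 8 distal colon markers, Hoxb13 among them, was -0.29, -1.35 and -1.39 on the WT AOM/DSS arrays. On the TSP-1-/- AOM/DSS arrays it was -0.09, -0.51 and -0.74. None of the 8 was called within AOM/DSS, and the median difference was 0.40. Of the 8, 3 were below 0 and thus opposite to Hoxb13 (4.19), among them Hoxd10 (-1.83) and Hoxd11 (-1.54). The mean of 7 genes that mark the proximal colon was 0.58 and 0.41 on WT AOM/DSS replicates 2 and 3, and -2.35 on WT replicate 1 and -2.40 to -1.95 on the TSP-1-/- AOM/DSS arrays. WT replicate 1 was thus the only WT AOM/DSS array with the Hoxb13 and proximal marker values of the TSP-1-/- arrays. It lay above all 3 TSP-1-/- arrays for 9 of the 10 enteroendocrine genes, the exception being Neurog3, and the same was so for 25% of all probes. The gap was small for Insl5 (1.00 against 0.92) and Neurod1 (-0.06 against -0.24). Sct, Tph1, Chga, Chgb and Neurod1 were higher on WT replicates 2 and 3 than on replicate 1.

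**Figure D2:**
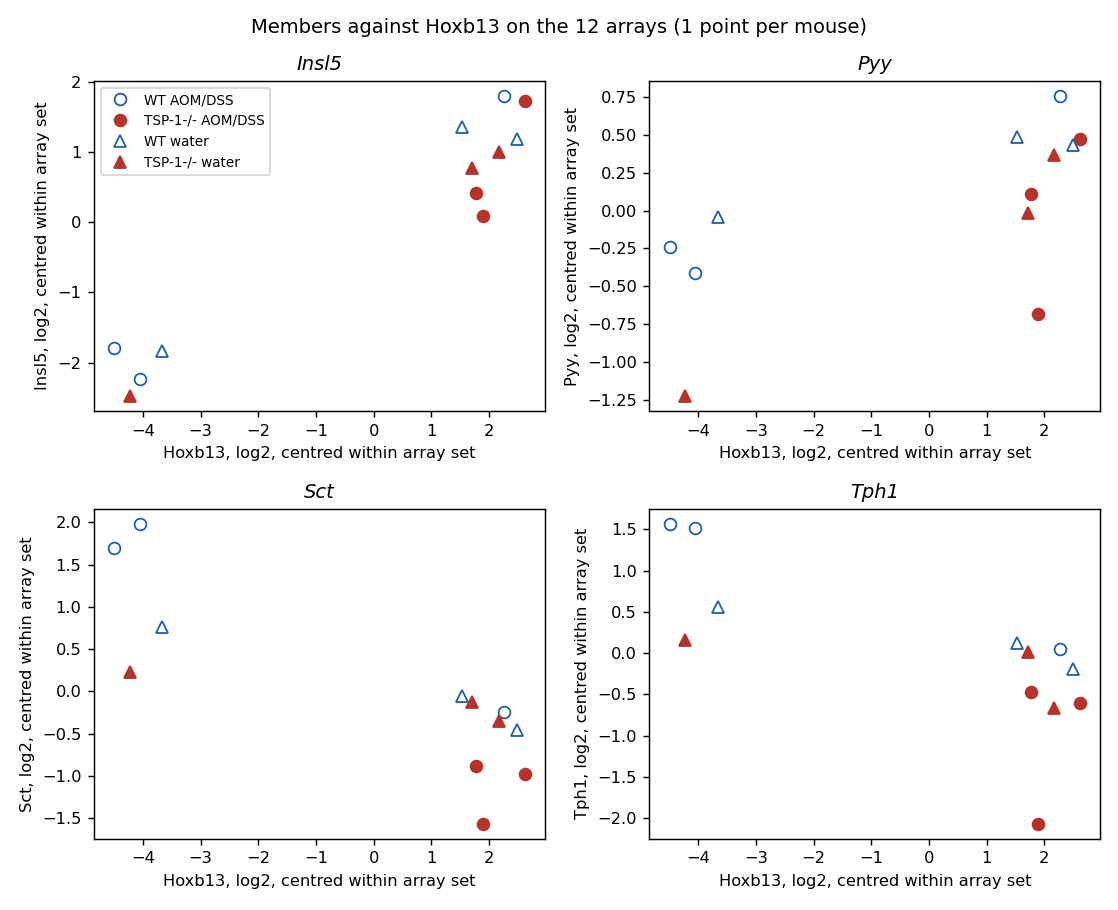
Insl5, Pyy, Sct and Tph1 (vertical axes) against Hoxb13 (horizontal axes) on the 12 arrays, in log2 units after subtracting the mean of each array set; circles are AOM/DSS and triangles water, open symbols WT and filled symbols TSP-1-/-. The 4 arrays low in Hoxb13 are the 4 lowest in Insl5, whereas for Sct and Tph1 they are the 2 highest arrays of each array set.

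A fit with Hoxb13 as a covariate, chosen after the values had been seen, left 0 of the 10 genes and 0.132% of all probes called lower within AOM/DSS. An unadjusted p under 0.05 was reached by 8 of the 10 genes and by 31.5% of all probes. All 10 differences were then below 0. Sct stood at -1.47 (limma adjusted p = 0.0520), Tph1 at -1.50 (adjusted p = 0.0711), Chgb at -1.04 (adjusted p = 0.0681), Chga at -1.40 (adjusted p = 0.0763) and Neurod1 at -0.93 (adjusted p = 0.115), under the 2-fold minimum. Insl5 turned from 1.48 to -0.86 (adjusted p = 0.125) and Pyy went from -0.07 to -0.77 (adjusted p = 0.117). Genotype and Hoxb13 overlap only through WT replicate 1 within AOM/DSS, and the part of colon position in the 5 called differences was not tested beyond this fit.

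Chga and Chgb encode chromogranin A and B, acidic proteins that are packed with the hormones in the granule and serve as general markers of enteroendocrine cells. Chga read -0.25, 1.14 and 0.90 on the WT AOM/DSS arrays and -0.57, -1.04 and -2.31 on those of TSP-1-/- mice. Chgb read -0.22, 0.64 and 0.56 in WT and -0.57, -0.79 and -1.64 in TSP-1-/-. In both genes every TSP-1-/- array was below every WT array, and the order of the 6 arrays was the same. Chga fell by 1.91 (SE 0.43, 95% interval -2.85 to -0.96, limma adjusted p = 0.0296) and Chgb by 1.32 (SE 0.28, 95% interval -1.94 to -0.71, adjusted p = 0.0263). On water the differences were -0.26 for Chga, with values of -0.19 to 0.66 in WT and -0.24 to 0.12 in TSP-1-/-, and -0.13 for Chgb, with values of -0.29 to 0.16 and -0.37 to -0.07, and both overlapped.

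Of 24 probes for 22 further genes of granules, hormone processing and exocytosis, 4 passed the test, all lower, with a median difference of -0.59. They were Scg5 (-1.02, adjusted p = 0.0150), the chaperone of prohormone convertase 2, the granin Scg3 (-1.32, adjusted p = 0.0184), Pcsk1 (-1.68, adjusted p = 0.0215), the convertase that cuts prohormones, and Cpe (2.005-fold lower, adjusted p = 0.0462), the carboxypeptidase that trims them. Pcsk1 read -0.17, 0.87 and 0.43 in WT and -1.16, -0.87 and -1.88 in TSP-1-/-. Scg5 read 0.12, 0.21 and 0.05 in WT and -0.96, -0.58 and -1.13 in TSP-1-/-. Several genes of this list are also used by neurons. Of 13 enteric neuron markers none was called and 11 were below 0, with a median difference of -0.51, and their part in these values was not tested.

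Among 21 further peptide hormone genes 3 were called, all lower, and the median difference was -0.19. Sst (-1.93, adjusted p = 0.0184) encodes somatostatin, the inhibitory hormone of D cells, Gal (-1.09, adjusted p = 0.0254) encodes galanin, a peptide of enteric neurons and some endocrine cells, and Nts (-2.96, adjusted p = 0.0381) encodes neurotensin. Sst read -0.77, 0.53 and 0.68 in WT and -1.72, -1.40 and -2.24 in TSP-1-/-. Nts read -2.91, 0.68 and 0.82 in WT and -3.59, -3.46 and -3.22 in TSP-1-/-. For Nts the WT replicate 1 array lay just above the TSP-1-/- arrays, and the other WT arrays lay far above both.

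Neurod1, which drives differentiation after commitment, was called and Neurog3, which commits progenitors, was not. Neurod1 read -0.06, 1.43 and 1.02 on the WT AOM/DSS arrays and -0.24, -0.26 and -1.15 on those of TSP-1-/- mice. The gap between WT replicate 1 and the nearest TSP-1-/- array was small, and the difference was -1.35 (SE 0.36, 95% interval -2.13 to -0.56, limma adjusted p = 0.0437). On water it read -0.16, 0.03 and 0.34 in WT and 0.00, -0.74 and -0.30 in TSP-1-/- (difference -0.42, 95% interval -1.20 to 0.37).

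Neurog3 read -0.50, 0.01 and -0.01 on the WT AOM/DSS arrays and -0.70, 0.08 and -0.28 on those of TSP-1-/- mice. Its groups overlapped (difference -0.13, 95% interval -0.56 to 0.30, limma adjusted p = 0.662). On water it lay between -0.05 and 0.16 in WT and between -0.01 and 0.21 in TSP-1-/- (difference 0.02, SE 0.20). Neurog3 had the narrowest interval of the 10 genes in both array sets. Whether the difference of Neurod1 exceeds that of Neurog3 was not tested.

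Of 24 probes for 23 other lineage factors 1 was called higher and 0 lower, with a median difference of 0.09. Hhex, the homeobox factor of somatostatin cells that also acts in liver and pancreas, rose by 1.41 (adjusted p = 0.0363), from -0.21, -0.01 and -0.24 in WT to 1.02, 0.44 and 2.29 in TSP-1-/-, with its highest value on the array that carried pancreatic markers. Isl1, a LIM homeobox factor of endocrine progenitors and neurons, differed by 1.12 without passing the test (adjusted p = 0.0682). Its WT arrays read 1.00, -0.36 and -0.07, so replicate 1 again stood with the TSP-1-/- arrays at 1.88, 0.47 and 1.59.

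None of 21 hormone receptor probes passed the test within AOM/DSS, and their median difference was 0.18. The largest differences were those of Npy2r, a receptor of peptide YY (-0.81, adjusted p = 0.111), and Htr3b, a subunit of the serotonin-gated ion channel (0.59, adjusted p = 0.0700). Of 21 probes for 19 nutrient and bile acid sensors 3 were called, 2 lower and 1 higher, with a median difference of 0.31. Trpm5, the taste transduction channel that also defines tuft cells, fell by 1.09 (adjusted p = 0.0272), and Slc5a1, the sodium-glucose transporter of absorptive and endocrine cells, fell by 1.24 (adjusted p = 0.0273). Piezo2, a mechanosensitive channel, has 3 probes, of which 1 was called higher (1.10, adjusted p = 0.0384). None of these lists had a called probe in water.

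Markers of other epithelial cells were not all lower with the enteroendocrine genes. The 10 enterocyte markers were all below 0 with 1 called lower and a median of -0.54, the 8 goblet cell markers had none called and a median of -0.28, and the 9 general epithelial markers had none called and a median of -0.30. The 8 tuft cell markers went both ways, with 4 below 0, Trpm5 alone called and a median of 0.07. The 6 Paneth cell markers had 3 called higher and a median of 3.24. Their mean was 2.58 on WT AOM/DSS replicate 1 and 2.56, 4.07 and 4.32 in TSP-1-/-, against -0.86 and -0.49 on WT replicates 2 and 3.

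In water no enteroendocrine gene was called by limma, 0 had an unadjusted p under 0.05, and no gene had separate groups, as against 0% of all probes called and 2.88% of probes with TSP-1-/- below WT on all arrays. The differences ran from -0.58 (Pyy) to 0.02 (Neurog3), with 9 of 10 below 0 and a median of -0.37. Over all probes 288 had an unadjusted p under 0.05. The difference between the AOM/DSS and the water genotype difference, in which a shift between the array sets cancels, was called for 0 of the 10 genes and for 0.00694% of all probes. An unadjusted p under 0.05 was reached by 4 genes, Sct (-2.13), Chgb (-1.19), Chga (-1.65) and Tph1 (-1.76), with limma adjusted p from 0.251 to 0.269, and by 15.4% of all probes. A larger genotype difference after AOM/DSS than in water was therefore not shown for any gene.

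**Figure D3:**
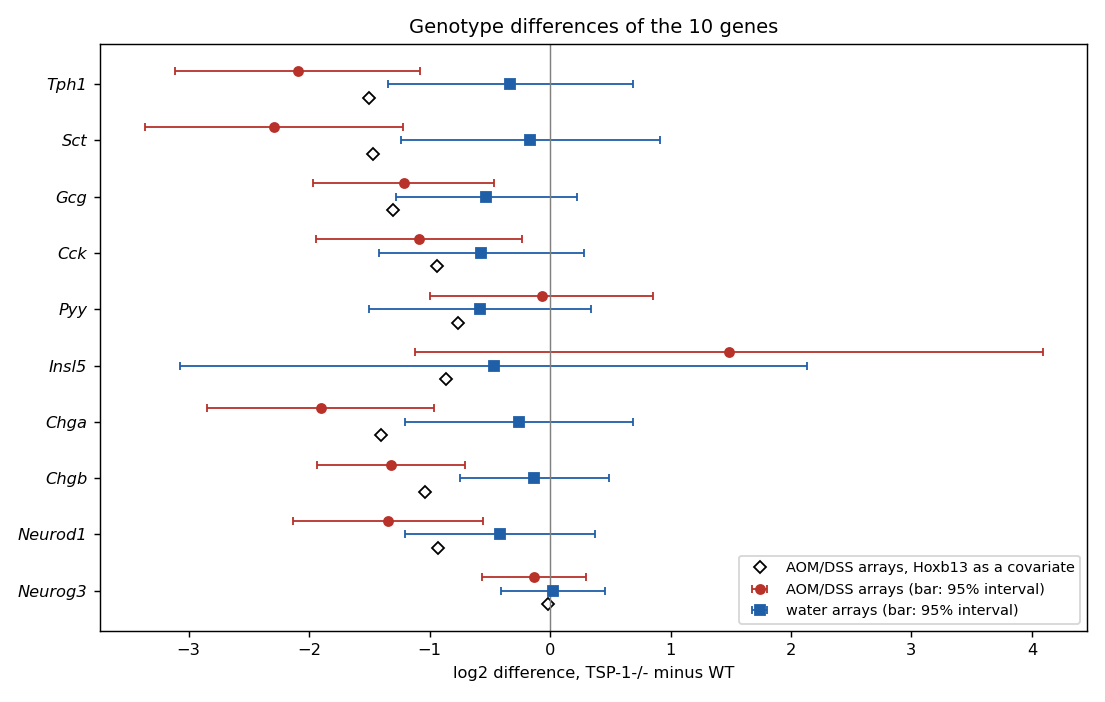
Log2 difference TSP-1-/- minus WT (horizontal axis) of each gene within the AOM/DSS arrays (circles) and the water arrays (squares), with 95% intervals of the fit to 12 arrays, and within AOM/DSS with Hoxb13 as a covariate (diamonds, no interval drawn). The AOM/DSS intervals of Tph1, Sct, Gcg, Cck, Chga, Chgb and Neurod1 lie below 0, those of Pyy, Insl5 and Neurog3 and all water intervals include 0.

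The calls within AOM/DSS depended on single arrays. Without WT AOM/DSS replicate 2, without WT AOM/DSS replicate 3 or without TSP-1-/- AOM/DSS replicate 3, limma called 0 of the 10 genes, and without TSP-1-/- AOM/DSS replicate 2 it called 7, adding Gcg and Cck. The share of all probes called lower moved with these counts, from 1.05% to 0.347%, 0.0762% and 0.0936% in the fits that called none of the 10 genes and to 1.78% in the fit that called 7. Leaving out TSP-1-/- AOM/DSS replicate 1 or any 1 of the water arrays also ended the call of Neurod1. The direction of Tph1, Sct, Chga, Chgb, Neurod1, Gcg and Cck was lower in TSP-1-/- with each of the 12 arrays left out. Without TSP-1-/- replicate 3, the array with pancreatic markers, Tph1 stood at -1.58 (adjusted p = 0.0784), Sct at -2.08 (adjusted p = 0.0792), Chga at -1.40 and Chgb at -1.01. Without both that array and WT replicate 1, the same 5 genes were called, with Sct at -2.77 (adjusted p = 0.00133). The share of all probes called lower was then 1.56%, and the WT arrays left were those low in Hoxb13. A fit to the 6 AOM/DSS arrays alone called none of the 10 genes and 0.00347% of all probes lower. In it 7 of the 10 genes and 23% of all probes had an unadjusted p under 0.05.

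**Figure D4:**
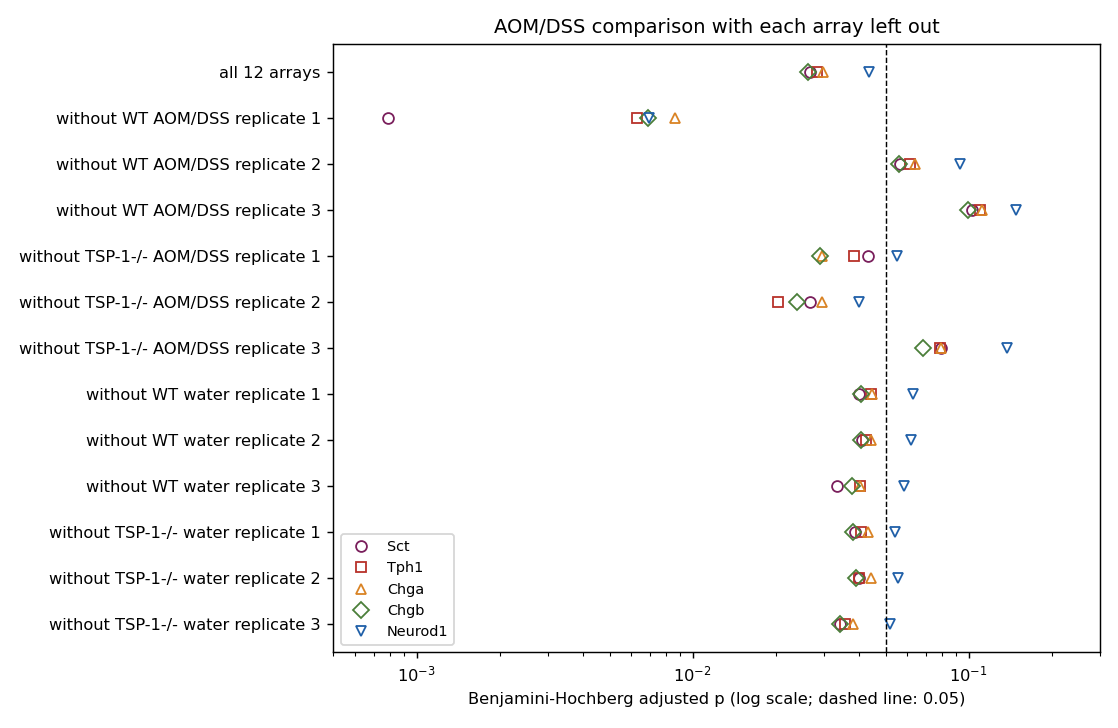
Benjamini-Hochberg adjusted p (horizontal axis, log scale) of the AOM/DSS genotype difference for Sct, Tph1, Chga, Chgb and Neurod1 with all 12 arrays and with each array left out in turn (vertical axis); the dashed line is the threshold. All 5 genes lie right of the line when WT AOM/DSS replicate 2 or 3 or TSP-1-/- AOM/DSS replicate 3 is left out, and all lie left of it when WT AOM/DSS replicate 1 is left out.

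On the AOM/DSS arrays each of the 10 genes stood above its baseline on 2 or 3 of the 6 arrays. That baseline is stated as the median of 12 arrays, which was not recomputed. The water arrays did not match the stated baseline, so this count cannot compare AOM/DSS with water. The 5 probes whose pattern was most like the mean of the 10 genes, over the 12 arrays centred within each set, were Ndufs6, Ndufb9, Atp5j, Sdha and Hepacam2, with Pearson r from 0.963 to 0.974. Those most like Tph1 were Aldh1a1, Ces1f, Fgl2, Akr1c19 and Acsf2 (0.973 to 0.984). Those most like Neurog3 were Olfr787, Metap1, Dis3l2, 1700012B07Rik and Lgi1 (0.849 to 0.923). The arrays share the Hoxb13 clusters and the extreme position of TSP-1-/- replicate 3, and these coefficients are a description of likeness only.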

How the data were processed

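The authors summarised Affymetrix MoGene 1.0 ST signals with PLIER16, quantile normalized them and deposited log2 values relative to a baseline, which were used unchanged. Versions of their tools are not given in the sources used here. The stated baseline is the median of 12 samples. Group means of a partial supplementary gene list were sought among all probes, not by gene name. The 2 AOM/DSS means matched a deposited probe within 0.0001 for 377 of 377 genes. The water means matched at that probe for 0 of 377. The median itself was not recomputed. Of 28853 probes, 21789 have 1 symbol in GEO's platform annotation, 1621 several and 5443 none, and 28815 are complete over the 12 arrays. Only probes with 1 symbol gave gene names.

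Genotypes were compared with limma 3.58.1 (R 4.3.3) on all 12 arrays, with 1 mean per group, moderated variances and Benjamini-Hochberg adjustment over all probes, and a probe was called at an adjusted p under 0.05 and a difference of at least 2-fold. The 4 groups thus share 1 spread per probe, also where the AOM/DSS arrays varied more than the water arrays. The labels call the 3 arrays of a group biological replicates, and their number limits the precision. The script was tested on simulated data. The methods' filter on low signals needs absolute signals and was not run. Alternatives were other samples, scalings, filters, weights, a replicate block, an unmoderated test of the 2 groups alone, and arrays left out. The authors' analysis of variance over the 4 groups was not run. Deviations of same-numbered arrays correlated at -0.04 to 0.03 within AOM/DSS and at 0.09, 0.28 and 0.40 within water. Not every pair passed 0.1, so the numbers were not taken as pairs.

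Named were the members and Thbs1, up to 4 called genes of each other list by adjusted p, or the 2 with the largest differences where fewer than 2 were called, and the 5 probes most like 3 patterns. Mean marker values, Hoxb13, Hoxd10, Hoxd11, the mast cell genes, Ins2 and Iapp were added beside results. Members and lists were chosen with earlier results of these data known. Promoters came from RefSeq. Python 3.11.15, numpy 2.4.6, pandas 2.3.3, scipy 1.17.1 and matplotlib 3.10.9 were used.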

Additional observations from a re-analysis of the deposited data

How the results depend on the processing

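Within AOM/DSS the fit to 12 arrays called 5 of the 10 enteroendocrine genes. That fit called 1.05% of all probes lower. The count was 0 with limma on only the 2 groups of the comparison (0.00347% of all probes called lower). With an unmoderated test of these 2 groups it was also 0 (0%). In these 2 settings 7 and 4 genes had an unadjusted p under 0.05, against 23% and 16.4% of all probes. The count was 1 (Sct) with array weights (0.451%) and 2 (Tph1 and Chgb) after a further quantile normalization of the 12 arrays (0.364%). It was 0 with Hoxb13 as a covariate (0.132%), chosen after the data were seen. With 1 array left out it ran from 0 to 7, and the share from 0.0762% to 2.16%. It was 0 without WT AOM/DSS replicate 2, WT AOM/DSS replicate 3 or TSP-1-/- AOM/DSS replicate 3. With the replicate block it was 3 (Sct, Tph1 and Gcg, 0.62%). The cause of these changes was not tested. The filter on variable probes kept 6 of the 10 genes, without Sct and Tph1, and called 4 of them (1.11% of the probes tested). The other settings gave 5 or 6, with 0.964% to 2.93% of the probes tested called lower. No difference of Tph1, Sct, Chga, Chgb, Neurod1, Gcg or Cck within AOM/DSS changed sign in any of the settings that measured it, 25 or 26 for each gene, whereas Pyy kept its sign in 21 of 25, Insl5 in 24 of 25 and Neurog3 in 25 of 26. Within water no setting called a gene. The difference between the array sets called 0 genes, with 0% of all probes called lower in the fit to 12 arrays. With 1 array left out it called 0 to 1 (1, Sct, without WT AOM/DSS replicate 1, with 0.479% of all probes called lower). Without WT AOM/DSS replicate 1 and TSP-1-/- AOM/DSS replicate 3 together it called 3 (Sct, Tph1 and Chgb), with 0.701% of all probes called lower. Over all probes, 500 were called higher and 302 lower within AOM/DSS, against 396 and 414 after median centring, 259 and 391 after quantile normalization within each set and 78 and 105 after that of the 12 arrays. The last moved the median difference of all probes from 0.13 to 0.02. Whether probes stand above background cannot be read from relative values.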
